A study of Mus musculus with 6 samples.

Results

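The 9 germline genes described here mark or drive the switch from undifferentiated to differentiating spermatogonia. They are Kit, Stra8, Dmrtb1, Sohlh1, Sohlh2, Prss50, Ly6k, Esx1 and Crabp1. They were chosen by name, with earlier results of these data known. All 9 were found among the 54087 gene rows of the deposited counts and among the 21314 genes tested. RNA was measured in 3 Dnmt3A KO/KO and 3 Dnmt3A WT/WT libraries of male C57BL/6 germ cells at 10 days post partum (dpp). Every library came from cells sorted for bright and medium green fluorescence of an Id4-GFP reporter, a population that the labels take as approximating spermatogonial stem cells. DNMT3A is a de novo DNA methyltransferase, and the comparison asks how RNA differs between cells labelled KO/KO and WT/WT for its gene. The sources used here do not give how the KO allele was made or how many animals gave each sample, so each p-value reflects only how far these samples vary, which may be technical.

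Spermatogonial stem cells renew themselves or give rise to progenitors, and a pulse of retinoic acid turns progenitors into differentiating spermatogonia. The receptor tyrosine kinase KIT appears at that switch and carries the survival and growth signal of its ligand, stem cell factor, which Sertoli cells supply. In the mouse the germ cell transcription factors SOHLH1 and SOHLH2 are needed for the switch, DMRTB1 (also called DMRT6) helps end the spermatogonial programme, and STRA8, induced by retinoic acid, is needed for meiosis to begin. A gate on bright Id4-GFP alone would favour the cells that precede all of these events. The gate here also took medium cells, and which stages the sorted cells covered was not tested.

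Gene counts summed to between 42681201 and 61749155 per library. Dnmt3a, the check of the labels, had 90.2, 104 and 99.5 CPM (gene counts scaled by library size and TMM factors) in the KO/KO libraries and 215, 193 and 188 CPM in the WT/WT libraries (log2 fold change -1.02, SE 0.09, edgeR adjusted p = 0.000222). Much Dnmt3a RNA thus remained under the KO/KO label, at a mean of 98 CPM against 199 CPM in WT/WT. The direction goes with the labels, but whether these cells lacked DNMT3A protein was not tested. The KO/KO libraries differed among themselves more than the WT/WT libraries did. The chi-square per degree of freedom was between 40.4 and 54.5 within KO/KO and between 13.5 and 16.2 within WT/WT, so no library was a copy of another. KO/KO replicate 1 stood at 38.4 to 39.3 from the WT/WT libraries by this measure and at 40.4 and 41 from the other KO/KO libraries. The measure grows with the depth of a pair, and KO/KO replicate 3 was the deepest library. These values therefore do not tell which genotype KO/KO replicate 1 was nearer to. All 7 germ cell and spermatogonial markers were detected, summing to between 1675 and 1832 CPM in KO/KO and between 2027 and 2070 CPM in WT/WT. Of these Id4 rose, Uchl1 (log2 fold change -0.88), Zbtb16 (-0.56) and Sall4 (-0.36) fell, and Ddx4 (0.24), Dazl (-0.30) and Mael (-0.28) did not pass. Id4, whose reporter set the gate, had 86.7, 176 and 159 CPM in KO/KO and 36.9, 38 and 38.4 CPM in WT/WT (log2 fold change 1.89, SE 0.22).

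The DNA before the start sites is shown for Kit, Sohlh1, Sohlh2 and Dmrtb1, which fell. Crabp1 also fell and is not shown. SOHLH1 and SOHLH2 belong to the class of basic helix-loop-helix factors that bind CANNTG (the E-box). Retinoic acid receptors bind repeats of AGGTCA. The sequences are from RefSeq on GRCm38.p6, 5′ to 3′ on the strand of the gene, within the 250 bases before the RefSeq start and ending before the first annotated exon base of the gene in GENCODE M21. Capitals mark CANNTG and AGGTCA, searched on both strands. The Kit stretch is chr5:75574737-75574915 (plus strand), that of Sohlh1 is chr2:25847249-25847498 (minus strand), that of Sohlh2 is chr3:55181794-55182027 (plus strand) and that of Dmrtb1 is chr4:107684231-107684480 (minus strand).
Kit: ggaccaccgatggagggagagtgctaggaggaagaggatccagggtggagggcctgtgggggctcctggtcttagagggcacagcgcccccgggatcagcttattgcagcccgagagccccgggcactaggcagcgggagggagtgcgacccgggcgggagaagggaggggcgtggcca
Sohlh1: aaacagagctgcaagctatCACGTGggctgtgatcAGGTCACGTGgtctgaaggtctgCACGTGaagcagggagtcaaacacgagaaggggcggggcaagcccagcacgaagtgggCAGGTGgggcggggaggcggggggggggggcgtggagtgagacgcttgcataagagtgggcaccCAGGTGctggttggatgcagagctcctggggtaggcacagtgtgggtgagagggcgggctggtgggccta
Sohlh2: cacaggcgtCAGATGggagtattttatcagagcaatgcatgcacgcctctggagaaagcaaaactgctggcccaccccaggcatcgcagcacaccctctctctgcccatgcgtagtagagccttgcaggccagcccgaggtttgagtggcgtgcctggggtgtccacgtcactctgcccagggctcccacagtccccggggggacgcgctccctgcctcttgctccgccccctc
Dmrtb1: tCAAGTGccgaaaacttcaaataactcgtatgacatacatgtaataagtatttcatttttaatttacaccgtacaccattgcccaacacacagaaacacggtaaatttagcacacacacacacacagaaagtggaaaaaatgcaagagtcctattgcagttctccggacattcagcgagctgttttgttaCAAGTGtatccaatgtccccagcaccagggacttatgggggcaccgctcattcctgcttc

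The Sohlh1 stretch held 5 matches of CANNTG, of which 3 read CACGTG, and its single AGGTCA shares 2 bases with the second CACGTG. Among 27025 promoters of the same length 66.1% held CANNTG and 12.1% held it 3 times or more, whereas 6.04% held CACGTG and 0.0592% held it 3 times or more. Dmrtb1 had 2 matches of CANNTG and Sohlh2 had 1. The 250-base windows of Kit, Stra8, Crabp1 and Prss50 held none, and that of Esx1 held a single CACGTG. The Esx1 window (chrX:137120327-137120576, minus strand) precedes the RefSeq start but lies inside the gene as annotated in GENCODE M21. The windows of Kit, Dmrtb1, Sohlh2, Crabp1, Prss50 and Esx1 held no AGGTCA. A match is a string of letters, and binding was not measured.

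For Stra8 the window lies inside an exon of another annotated transcript, and only the 26 bases around each of its 2 AGGTCA matches are shown (plus strand, chr6:34920744-34920769 and chr6:34920900-34920925). One match or more stood in 13.8% of all promoters and 2 or more in 1.32%.
Stra8 distal: tggggtgaaaAGGTCAtcttgctcct
Stra8 proximal: ctggggtaccAGGTCAgttttttacc

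DNMT3A acts on CG dinucleotides, and the windows differed in how many they hold. Esx1, whose window lies inside the annotated gene, had 24. Kit and Prss50 had 17 each, Sohlh2 14, Crabp1 12, Sohlh1 11, Dmrtb1 7 and Stra8 5. The median over all promoters was 6. DNA methylation was not analysed here, and Ly6k had no entry in the promoter table.

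Among the 9 genes 6 fell in KO/KO, none rose and 3 did not pass the test by the edgeR quasi-likelihood test, at a p under 0.05 after Benjamini-Hochberg adjustment over all genes tested. Kit, Dmrtb1, Crabp1, Stra8, Sohlh2 and Sohlh1 were the 6 that fell. Over all tested genes 6.42% were called lower and 8.33% higher. In these same 6 genes every KO/KO library lay below every WT/WT library, which held for 17.6% of all tested genes. The median log2 fold change of the 9 genes was -1.16, against 0.00 over all tested genes. Because the 9 were chosen with earlier results of these data known, these comparisons are a description. In sorted bulk cells, fewer cells carrying a transcript and less of it per cell cannot be told apart.

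**Figure D1:**
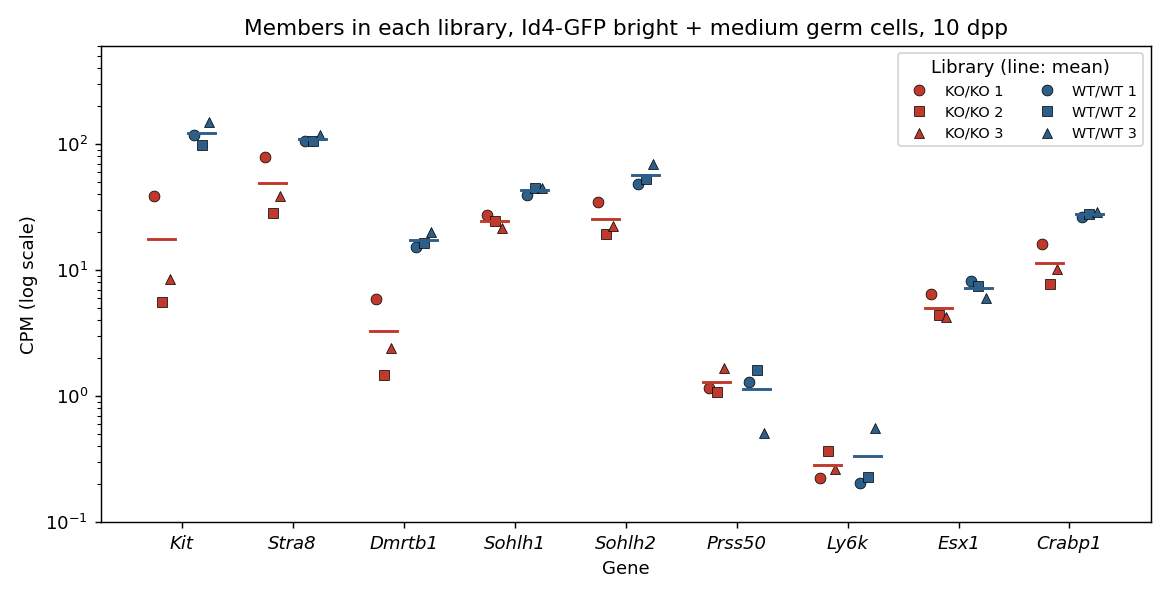
CPM of each of the 9 genes in each library (log axis, points for libraries, lines for the means of KO/KO in red and WT/WT in blue). The genotypes do not overlap for Kit, Stra8, Dmrtb1, Sohlh1, Sohlh2 and Crabp1, and KO/KO replicate 1 is the highest KO/KO library for each of these 6.

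The receptor itself changed the most. Kit (chromosome 5, 75574916 to 75656722, plus strand, GRCm38) had 38.6, 5.63 and 8.43 CPM in KO/KO replicates 1, 2 and 3, against 118, 98.9 and 150 CPM in WT/WT replicates 1, 2 and 3. The genotypes did not overlap, and KO/KO replicate 1 stood far above the other KO/KO libraries. Relative to the WT/WT mean, Kit was at 31.6% in KO/KO replicate 1, 4.61% in replicate 2 and 6.9% in replicate 3. The log2 fold change was -2.81 (SE 0.59, n = 3 per genotype, edgeR adjusted p = 0.0129), and it was -4.11 without KO/KO replicate 1. These values rest on 1727, 278 and 544 counts in KO/KO and 5170, 4760 and 6111 counts in WT/WT. The fall passed the test with any single library left out, with adjusted p = 0.048 without WT/WT replicate 3.

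KIT also sits on some somatic and blood cells, whose markers were read beside this result. Of 7 mast cell markers 5 had no count in any library, and none exceeded 2 counts in a library. Leydig cell markers summed to between 3.57 and 7.24 CPM in KO/KO and between 6.58 and 16 CPM in WT/WT over 6 genes, of which 3 had enough counts to be tested and none passed with all libraries. Cyp11a1 and Hsd3b1 were called lower without KO/KO replicate 3 and with the replicate block, Cyp17a1 without WT/WT replicate 1 and with DESeq2, and these 3 genes without a filter on low counts. Cyp17a1, a Leydig steroid enzyme with too few counts for the main fit, had 0.179, 0.0608 and 0.0465 CPM in KO/KO and 0.183, 0.353 and 2.52 CPM in WT/WT. The genotypes overlapped for Cyp11a1, at 0.067, 0.182 and 1.15 CPM in KO/KO and 0.502, 0.727 and 2.7 CPM in WT/WT. They also overlapped for Hsd3b1, at 0.0894, 0.365 and 1.97 CPM in KO/KO and 0.913, 0.872 and 4.02 CPM in WT/WT. WT/WT replicate 3 had the most of each of these 3 genes and was also the library with the most Kit. The part of Leydig cells in the Kit difference was not tested, and without that library the log2 fold change of Kit was -2.64. Of 9 Sertoli cell markers, all tested, none passed, where 14.8% of all tested genes were called in either direction. They summed to between 439 and 609 CPM in KO/KO and between 419 and 650 CPM in WT/WT. Clu, the largest part, had 194, 229 and 300 CPM in KO/KO and 309, 273 and 186 CPM in WT/WT. Somatic cell RNA was thus present, and its share in the sorted cells was not estimated.

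Both SOHLH factors fell, and Sohlh1 was the gene in which the KO/KO libraries were most alike. Sohlh1 (chromosome 2, 25842995 to 25847248, minus strand), the gene whose promoter holds 3 CACGTG strings, had 27.2, 24.4 and 21.7 CPM in KO/KO, against 39.7, 44.6 and 44.6 CPM in WT/WT. Every KO/KO library lay below the lowest WT/WT library, and the KO/KO mean was 56.8% of the WT/WT mean. Its log2 fold change was -0.82 (SE 0.11, edgeR adjusted p = 0.00194), and it ran from -0.89 to -0.72 when single libraries were left out.

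Its partner Sohlh2 (chromosome 3, 55182028 to 55209957, plus strand) had 34.8, 19.5 and 22.2 CPM in KO/KO, against 48.3, 52.8 and 69.8 CPM in WT/WT. Again the genotypes were apart, with KO/KO replicate 1 the highest of its group and WT/WT replicate 3 the highest of all. The log2 fold change was -1.16 (SE 0.22, edgeR adjusted p = 0.00717).

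Dmrtb1 (chromosome 4, 107676290 to 107684230, minus strand), a DM-domain transcription factor that in the mouse helps close the spermatogonial programme, was second to Kit in the size of its change. It had 5.92, 1.46 and 2.4 CPM in KO/KO, against 15.3, 16.5 and 20.2 CPM in WT/WT. No KO/KO library reached the lowest WT/WT library. The log2 fold change was -2.42 (SE 0.41, edgeR adjusted p = 0.00486), and -3.15 without KO/KO replicate 1.

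Stra8 and Crabp1, both tied to retinoic acid, fell as well, and Stra8 was the least stable of the 6 calls. Stra8 (chromosome 6, 34920163 to 34939344, plus strand), which retinoic acid induces and which meiosis requires, had 79.5, 28.5 and 38.8 CPM in KO/KO, against 105, 106 and 118 CPM in WT/WT. KO/KO replicate 1 was at 72.6% of the WT/WT mean, whereas replicates 2 and 3 were at 26% and 35.5%. The log2 fold change was -1.16 (SE 0.30, edgeR adjusted p = 0.0297). The call was lost without KO/KO replicate 3 (adjusted p = 0.0783) and without WT/WT replicate 1, 2 or 3 (adjusted p = 0.0708, 0.0839 and 0.0971), while without KO/KO replicate 1 the log2 fold change was -1.69 (adjusted p = 0.000267).

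Crabp1 (chromosome 9, 54764748 to 54773110, plus strand) encodes a cytosolic protein that binds retinoic acid. It had 16.2, 7.78 and 10.2 CPM in KO/KO, against 26.4, 28 and 29 CPM in WT/WT. The WT/WT libraries were close together, and all KO/KO libraries lay below them. The log2 fold change was -1.29 (SE 0.23, edgeR adjusted p = 0.00576).

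Esx1, Prss50 and Ly6k were the 3 genes that did not pass the test. Esx1 (chromosome X, 137115397 to 137122083, minus strand), a homeobox gene of testis and placenta, had 6.48, 4.4 and 4.23 CPM in KO/KO and 8.22, 7.54 and 6.06 CPM in WT/WT. The groups overlapped through KO/KO replicate 1, which lay above WT/WT replicate 3. The log2 fold change was -0.53 (SE 0.22, edgeR adjusted p = 0.131), and without KO/KO replicate 1 it was -0.74 and passed (adjusted p = 0.0404). Without that library 7 of the 9 genes were called lower, against 6.17% of all genes tested.

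Prss50 (chromosome 9, 110857967 to 110864629, plus strand), a testis serine protease gene, had 1.16, 1.07 and 1.66 CPM in KO/KO and 1.3, 1.62 and 0.515 CPM in WT/WT. The genotypes overlapped, and the lowest value was in WT/WT replicate 3 (log2 fold change 0.18, SE 0.41, edgeR adjusted p = 0.817). The sign of this difference turned without KO/KO replicate 3 (-0.03) or WT/WT replicate 3 (-0.17).

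Ly6k (chromosome 15, 74796874 to 74799986, minus strand), which encodes a membrane-anchored protein that in the mouse works with TEX101 in sperm, was near the limit of detection. It had 10, 18 and 17 counts in KO/KO and 9, 11 and 23 counts in WT/WT (log2 fold change -0.22, SE 0.56, edgeR adjusted p = 0.839), a range in which a change of this size is not detectable. Without WT/WT replicate 3 the log2 fold change was 0.38. Of its exon bases 47.6% lie under Gm17189, which runs the other way, and the sources used here do not say whether the counting used strand.

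**Figure D2:**
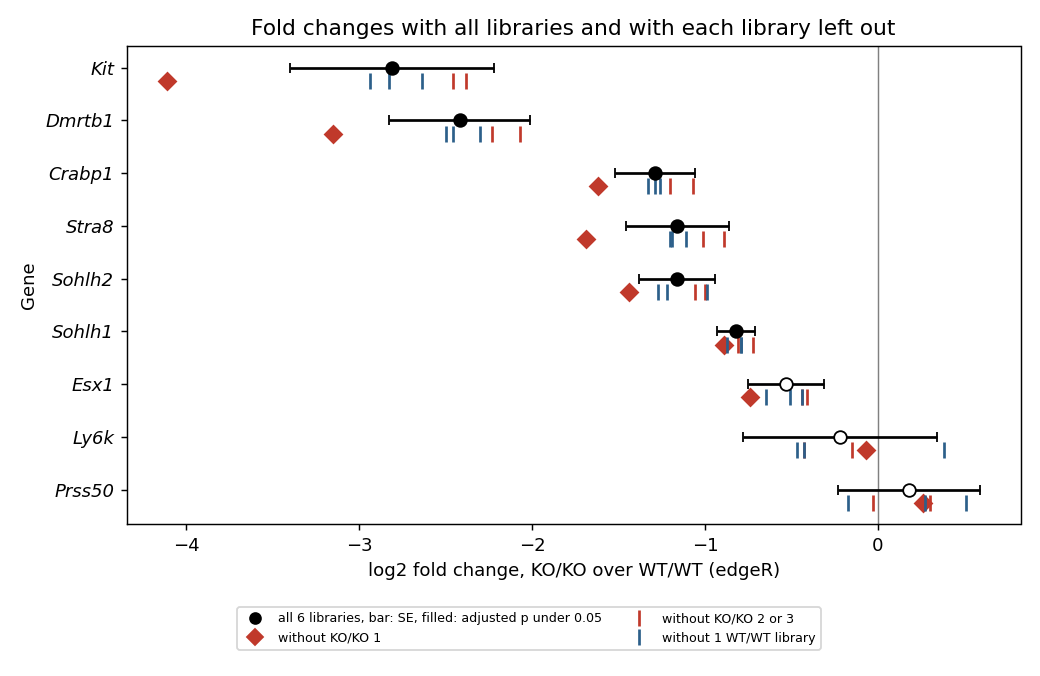
Log2 fold change of each gene, KO/KO over WT/WT, with all 6 libraries (circles with SE bars, filled where adjusted p is under 0.05) and with each library left out (diamonds without KO/KO replicate 1, ticks without another library). Leaving out KO/KO replicate 1 moves Kit to -4.11 and Dmrtb1 to -3.15, and Sohlh1 stays between -0.89 and -0.72.

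The order of the genes by level also differed between the genotypes. Per kilobase of annotated exon (RPKM, from CPM and the exon length of all transcripts together), the KO/KO means were 27.1 for Stra8, 18.9 for Sohlh1, 14.2 for Crabp1, 10.8 for Sohlh2, 2.54 for Esx1, 1.97 for Kit, 1.57 for Dmrtb1, 0.892 for Prss50 and 0.342 for Ly6k. The WT/WT means were 60.7 RPKM for Stra8, 34.7 for Crabp1, 33.3 for Sohlh1, 24.1 for Sohlh2, 13.7 for Kit, 8.33 for Dmrtb1, 3.66 for Esx1, 0.787 for Prss50 and 0.401 for Ly6k. In WT/WT the library ranges of Crabp1 and Sohlh1 overlapped, as did those of Prss50 and Ly6k, while the other neighbours in the order did not. In KO/KO the ranges overlapped between Stra8 and Sohlh1, Sohlh1 and Crabp1, Crabp1 and Sohlh2, Esx1 and Kit, Kit and Dmrtb1, and Dmrtb1 and Prss50. Kit ran from 0.632 to 4.33 RPKM in KO/KO and from 11.1 to 16.8 RPKM in WT/WT, so that it lay above Esx1 in every WT/WT library but in 1 of 3 KO/KO libraries, replicate 1.

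KO/KO replicate 1 stood between the WT/WT libraries and the other KO/KO libraries in all 6 genes that fell. On a log2(CPM + 0.5) scale from the WT/WT mean (0%) to the mean of KO/KO replicates 2 and 3 (100%), it lay at 26.8% for Stra8, 40.4% for Kit, 47.7% for Crabp1, 48.3% for Sohlh2, 50.6% for Dmrtb1 and 73.1% for Sohlh1. The median over all 1368 genes called lower was 80.9%, and KO/KO replicate 1 was the highest KO/KO library in 55.8% of them. Of those genes 0.219% lay as near to WT/WT as Stra8 or nearer, 2.49% as near as Kit and 10.1% as near as Dmrtb1. These genes were called with KO/KO replicate 1 in the fit, and a call is harder where that library lies near WT/WT. The median and the shares are therefore a description, and do not show how unusual the 6 genes are. Kit was 5.48 times as high in KO/KO replicate 1 as in the mean of the other KO/KO libraries, Dmrtb1 3.07 times, Stra8 2.36 times and Sohlh1 1.18 times. The same library had the least Id4 of the KO/KO libraries, 86.7 CPM, and what sets it apart was not tested.

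Outside the 9 genes, and with predicted gene models left out, 11795 tested genes averaged 1 or more on the log2 CPM scale, and of these Crybg3 followed Kit most closely across the 6 libraries. Likeness was the mean absolute difference between centred log2(CPM + 0.5) profiles, which was 0.16 for Crybg3, a crystallin-fold gene, at 24.7, 5.53 and 6.87 CPM in KO/KO and 82.1, 77.6 and 110 CPM in WT/WT. Also among the 5 nearest of these genes were the secreted Wnt modulator gene Sfrp2 at 0.40, the LIM homeobox gene Lhx8 at 0.52 and the elongation factor gene Tcea3 at 0.53. Among the other 8 genes described here Dmrtb1 was nearest to Kit, at 0.49, followed by Stra8 at 0.97, Crabp1 at 0.99, Sohlh2 at 1.06 and Sohlh1 at 1.29. Being chosen for their likeness to Kit in the same libraries, these 4 genes had to differ between the genotypes, and their log2 fold changes are a description. They were -2.87 for Crybg3, -2.95 for Sfrp2, -3.48 for Lhx8 and -3.73 for Tcea3. Without KO/KO replicate 1 those of Crybg3 and Lhx8 were -3.85 and -4.67. Of the Crybg3 exon bases 9.32% lie under Riox2, and of those of Sfrp2 16.1% lie under Gm26771, on the opposite strand in each case.

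**Figure D3:**
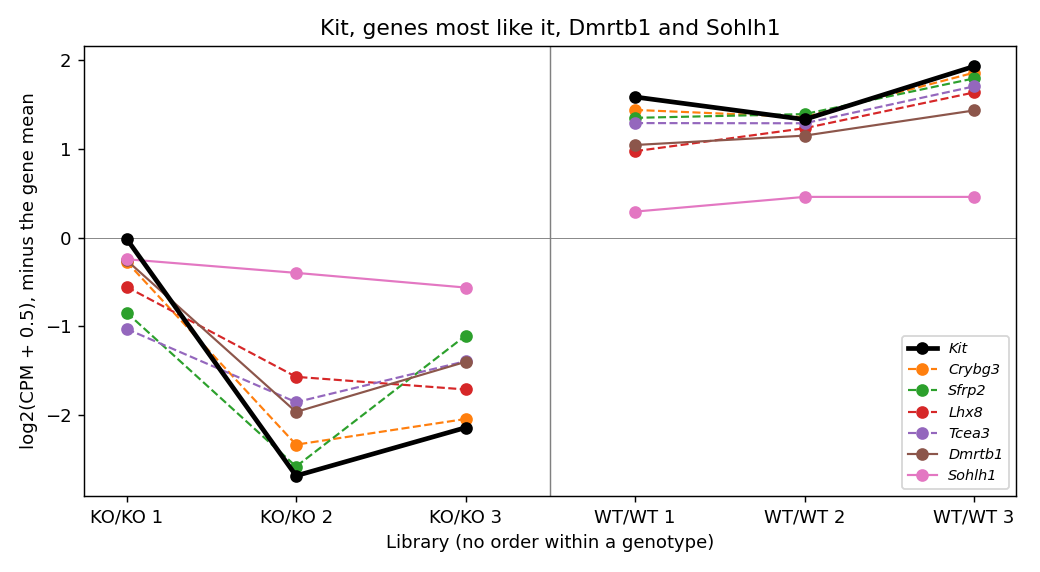
Centred log2(CPM + 0.5) of Kit (black), 4 of the 5 genes most like it outside the 9 (dashed), Dmrtb1 and Sohlh1 in the 6 libraries, which have no order within a genotype. Kit and Crybg3 lie close together in every library, and Sohlh1 spans a far smaller range than Kit.

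Factors known to act on Kit, Stra8 or the switch itself fell more often than they rose. They were listed with earlier results of these data known, so their counts are a description. Of 25 tested, 8 fell, 2 rose and 15 did not pass, with a median log2 fold change of -0.15, where 6.42% of all tested genes were called lower and 8.33% higher. Neurog3, a progenitor transcription factor, had 1.3, 1.13 and 0.217 CPM in KO/KO, against 8.74, 7.1 and 5.37 CPM in WT/WT (log2 fold change -3.03, SE 0.50, edgeR adjusted p = 0.00409). Of its exon bases 16.3% lie under Fam241b on the opposite strand.

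Dmrt1, a relative of Dmrtb1 that holds spermatogonia in mitosis in the mouse, had 202, 163 and 158 CPM in KO/KO, against 281, 291 and 315 CPM in WT/WT (log2 fold change -0.76, SE 0.10). Zbtb16, a repressor known to act on Kit, had 310, 333 and 282 CPM in KO/KO, against 496, 463 and 409 CPM in WT/WT (log2 fold change -0.56, SE 0.09). The retinoid X receptor gene Rxrg fell by 2.71 on the log2 scale (SE 0.44), at under 0.35 CPM in every KO/KO library.

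Kdm1a, Sox3, Foxo1 and Sall4, named after their values were seen, were the others that fell. Sox3 had 18.5, 12.2 and 2.14 CPM in KO/KO and 69.8, 66.1 and 71.9 CPM in WT/WT, with a log2 fold change of -2.67 and of -3.28 without KO/KO replicate 1. Sall4 was called with adjusted p = 0.0485. It lost its call in every fit that left out a library except the one without KO/KO replicate 2. It also lost its call with RLE or upper quartile factors and with the filter of 1 CPM in 3 libraries (edgeR adjusted p = 0.0502, 0.0637 and 0.0596). Foxo1 lost its call without any 1 WT/WT library. The 2 that rose, also named after their values were seen, were Nanos2, an RNA-binding factor that blocks differentiation in the mouse (log2 fold change 0.91, SE 0.23), and Max (0.45, SE 0.11). Without KO/KO replicate 1 only Max was called higher, without WT/WT replicate 2 only Nanos2, and without KO/KO replicate 3 or WT/WT replicate 1 or 3 neither was. Of the Nanos2 exon bases 49% lie under Gm45058 on the opposite strand. The retinoic acid receptor genes Rara, at 70.9, 73.4 and 78.6 CPM in KO/KO and 78.2, 62.2 and 70.8 CPM in WT/WT, and Rarg (log2 fold change -0.49, edgeR adjusted p = 0.109) did not pass the test. Rarg was called lower without KO/KO replicate 1, with the replicate block and without a filter on low counts.

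Most genes of KIT's ligand and signal chain did not pass the test, which was also true of most tested genes. Of 38 tested genes, 5 rose, 3 fell and 30 did not pass, with a median log2 fold change of -0.03, where 14.8% of all tested genes were called in either direction. Kitl, the ligand gene of the supporting Sertoli cells, had 38.5, 29.6 and 42.4 CPM in KO/KO and 45.9, 38.8 and 35 CPM in WT/WT, with overlapping genotypes (log2 fold change -0.12, SE 0.15, edgeR adjusted p = 0.659). Ptpn6, a phosphatase that damps KIT signalling, had 5.03, 10.6 and 9.94 CPM in KO/KO, against 1.87, 2.1 and 1.99 CPM in WT/WT (log2 fold change 2.10, SE 0.28, edgeR adjusted p = 0.00162). The PI3-kinase subunit genes Pik3cd and Pik3r1 also rose, with log2 fold changes of 0.84 (SE 0.12) and 0.92 (SE 0.16).

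The kinase gene Src had 29.4, 26.1 and 29 CPM in KO/KO, against 50.9, 46.3 and 45.2 CPM in WT/WT (log2 fold change -0.75, SE 0.10). The others past the test, named after their values were seen, were Sh2b3 and Akt2 (higher, 0.54 and 0.36) and Akt1 and Map2k2 (lower, -0.53 and -0.41). Without WT/WT replicate 3 only Src of the 3 remained called lower, Map2k2 lost its call without each WT/WT library, and Akt2 kept its call without KO/KO replicate 1 alone.

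Retinoic acid responsive genes outside the 9 moved both ways. Of 11 tested, 1 rose, 2 fell and 8 did not pass, with a median log2 fold change of 0.17, where 14.8% of all tested genes were called in either direction. Dhrs3, a retinaldehyde reductase gene, had 7.35, 10.7 and 10.2 CPM in KO/KO, against 3.86, 4.03 and 4.31 CPM in WT/WT (log2 fold change 1.21, SE 0.19). Cyp26a1, a retinoic acid degrading enzyme named after its values were seen, was also called higher without KO/KO replicate 2, and Cyp26b1 was also called lower without KO/KO replicate 1.

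Other differentiating and early meiotic genes both rose and fell. Of 7 other genes of differentiating spermatogonia 1 rose, 1 fell and 5 did not pass, with a median log2 fold change of 0.07, beside the same 14.8%. Lmo1 had 0.983, 0.689 and 1.29 CPM in KO/KO, against 4.86, 4.2 and 7.16 CPM in WT/WT (log2 fold change -2.44, SE 0.30), and the cyclin gene Ccnb3 had 33, 21.1 and 28.7 CPM in KO/KO, against 17.3, 13.4 and 13 CPM in WT/WT (log2 fold change 0.92, SE 0.18). Ccnb3 did not pass without WT/WT replicate 2 (adjusted p = 0.0555), and Rhox13 was also called higher without KO/KO replicate 2 or WT/WT replicate 3. Ccnd2, a G1 cyclin of these cells, had 311, 285 and 291 CPM in KO/KO and 297, 303 and 323 CPM in WT/WT, with overlapping genotypes.

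Of 20 genes of meiotic entry and early prophase 4 rose, 1 fell and 15 did not pass, with a median log2 fold change of 0.25, beside 8.33% higher and 6.42% lower over all tested genes. Smc1b, a meiotic cohesin gene, had 301, 298 and 317 CPM in KO/KO, against 216, 217 and 217 CPM in WT/WT (log2 fold change 0.49, SE 0.07). Prdm9, which places recombination sites, rose by 0.81 (SE 0.16) and Meioc, which acts in entry to meiotic prophase, by 0.68 (SE 0.14) on the log2 scale. Sycp2, named after its values were seen, was the other called higher (0.26, SE 0.07, adjusted p = 0.0416), but it passed in only 1 of the 6 fits that left out a library, the one without KO/KO replicate 3. It also did not pass with upper quartile factors, no filter, DESeq2 or the replicate block (adjusted p = 0.0754, 0.069, 0.0832 and 0.0908). The axis gene Sycp3 fell (log2 fold change -0.57, SE 0.12), with 52.2% of its exon bases under Chpt1 on the opposite strand. Sycp3 lost its call without WT/WT replicate 2 or 3, and without WT/WT replicate 3 only Smc1b and Prdm9 of the list were called higher.

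**Figure D4:**
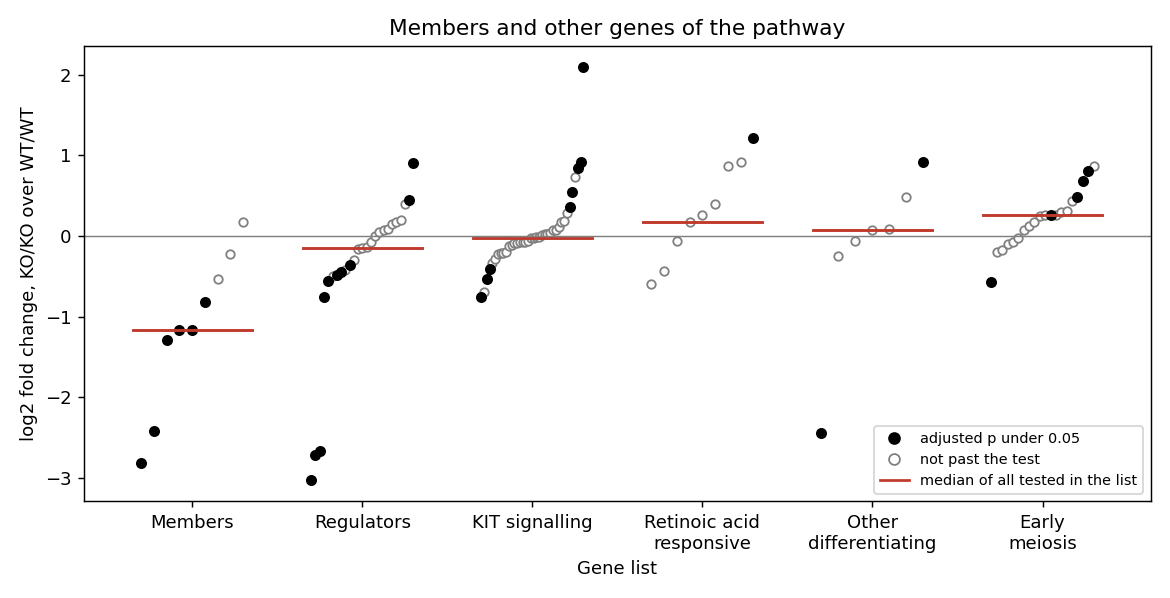
Log2 fold change, KO/KO over WT/WT, of the 9 genes and of 5 lists (filled points passed the test, red lines are medians). The 9 genes have a median of -1.16, and the medians of the other lists lie between -0.15 and 0.25. Of the 11 tested retinoic acid responsive genes 9 are drawn, and each median covers all tested genes of its list.

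Family members and genomic neighbours of the 9 genes both rose and fell. Of 24 tested relatives and partners 7 rose and 5 fell, beside 8.33% higher and 6.42% lower over all tested genes, and 4 rose without WT/WT replicate 2. Lhx8, Nobox and Figla act with SOHLH1 and SOHLH2 in the oocyte. Lhx8 had 0.961, 0.223 and 0.155 CPM in KO/KO, against 3.72, 4.55 and 6.18 CPM in WT/WT, and without KO/KO replicate 1 its log2 fold change of -3.48 was -4.67. Nobox also fell (log2 fold change -2.12, SE 0.34), while Figla did not pass (log2 fold change -0.64, edgeR adjusted p = 0.173).

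In the cluster of serine protease genes around Prss50, Prss45 had 2.66, 5.19 and 4.62 CPM in KO/KO, against 0.251, 0.27 and 0.319 CPM in WT/WT (log2 fold change 3.89, SE 0.34), while Prss50 and Prss42 did not pass. Prss46, the neighbour of Prss50 at 1.45 kb, had 11, 19 and 24 counts in KO/KO and 2, 0 and 0 counts in WT/WT, but it did not pass without WT/WT replicate 2 or 3. On the X chromosome the homeobox gene Rhox5 rose by 4.84 on the log2 scale (SE 0.32), whereas Esx1 did not pass. Of the Dmrt family Dmrt3 rose by 0.86 (SE 0.14), while Dmrtb1 and Dmrt1 fell. Dmrtc2, named after its values were seen, was called higher (0.97, SE 0.26, adjusted p = 0.0346) and lost its call in every fit that left out a library except the one without KO/KO replicate 1. Ly6h, from the family of Ly6k and likewise named with its values in view, was called higher (1.71, SE 0.44, adjusted p = 0.0286) and lost its call without KO/KO replicate 2 or WT/WT replicate 2 or 3.

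The nearest annotated protein-coding genes on each side of the 9 gave 14 tested neighbours, of which 2 rose, 4 fell and 8 did not pass, again beside 8.33% higher and 6.42% lower over all tested genes. Kit lies between 2 other receptor tyrosine kinase genes, Pdgfra at 377 kb and Kdr at 276 kb. Pdgfra had 12.7, 12.6 and 13.5 CPM in KO/KO, against 21.9, 21 and 16 CPM in WT/WT (log2 fold change -0.60, SE 0.14), but it did not pass without WT/WT replicate 1 or 2. Kdr had 20.6, 30.2 and 31.7 CPM in KO/KO, against 8.81, 9.08 and 7.55 CPM in WT/WT (log2 fold change 1.70, SE 0.18, edgeR adjusted p = 0.000538), so the neighbour on that side moved opposite to Kit.

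Lrp8, 118 kb from Dmrtb1, had 11.9, 19.1 and 8.56 CPM in KO/KO, against 43.2, 34.9 and 29 CPM in WT/WT (log2 fold change -1.44, SE 0.26). Kcnt1, 16.5 kb from Sohlh1 on the opposite strand, had 32.8, 20 and 21.1 CPM in KO/KO, against 53.5, 46.5 and 46.6 CPM in WT/WT (log2 fold change -0.99, SE 0.18). The fourth that fell was Wdr61, 30.2 kb from Crabp1 (log2 fold change -0.47, SE 0.12), which lost its call without KO/KO replicate 2 or 3 or WT/WT replicate 2 or 3, and 33.9% of whose exon bases lie under Dnaja4. Both neighbours of Sohlh2, Ccdc169 and Dclk1, had few counts and did not pass (adjusted p = 0.115 and 0.0607). With single libraries left out, between 2 and 5 neighbours were called lower, the 2 without WT/WT replicate 2.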

How the data were processed

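Total RNA of sorted cells was made into libraries with a SMARTer stranded kit, per the labels' protocols. The authors deposited raw read counts per gene and per transposable element family, and the submitters' processing notes name mm10, STAR 2.7.0a and featureCounts 1.5.1. The sources used here do not give the annotation, the strand setting or the handling of multi-mapping reads. The 1205 transposable element rows, between 14.1% and 15.5% of counts, were left out.

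Counts were fitted over all genes with the edgeR 4.0.16 quasi-likelihood test (R 4.3.3, TMM factors, filterByExpr, genotype as the only term, two-sided), adjusted by Benjamini-Hochberg at 0.05. The SE is the log2 fold change divided by the square root of F. CPM used gene totals and TMM factors. Positions and exon lengths came from GENCODE M21 (GRCm38, the assembly of mm10) and promoters from RefSeq.

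The members and lists were chosen with earlier results of these data known. Besides the 9 members, the text names up to 4 genes per list with the smallest p, called genes of lists under 12 genes, neighbours of members and the 5 genes most like Kit (members and predicted gene models left out), except some that are not reported here. Some other genes are said to be named after their values were seen. Others outside these rules carry no such mark, among them Kitl, Rara, Rarg, Ccnd2, Nobox, Figla, Prss42 and Dmrt3. Alternatives were other scalings and filters, DESeq2 1.42.0, limma-voom 3.58.1, a replicate block and leaving out each library.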

Additional observations from a re-analysis of the deposited data

How the results depend on the processing

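The 6 falls kept their direction in every alternative run, and 5 of them kept their call in all of these. Stra8 lost its call with DESeq2 (adjusted p = 0.071), which called 5 of the 9 genes lower. With single libraries left out the count of the 9 called lower ran from 5 to 7. In the same fits the log2 fold change of Prss50 ran from -0.17 to 0.51, that of Ly6k from -0.47 to 0.38 and that of Tmie, a neighbour of Prss50, from -0.09 to 0.28. Their signs turned without WT/WT replicate 3 (Prss50 -0.17, Ly6k 0.38, Tmie -0.06), KO/KO replicate 3 (Prss50 -0.03) or KO/KO replicate 2 (Tmie -0.09), and the cause was not tested.

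Over all genes 1776 were higher and 1368 lower, with 814 to 1985 and 560 to 1380 when single libraries were left out, the fewest without a WT/WT library. In the same fits the KIT signalling list gave 4 to 5 higher and 1 to 3 lower, regulators 0 to 2 higher and 6 to 9 lower, retinoic acid responsive genes 1 to 2 higher, other differentiating genes 0 to 2 higher, early meiotic genes 2 to 5 higher and 0 to 1 lower, and relatives 4 to 8 higher. Without a filter, and with DESeq2, 2 retinoic acid responsive and 2 other differentiating genes were higher, and at 1 CPM in 3 libraries 1 retinoic acid responsive gene was lower. The unfiltered fit pooled the spread far more (prior degrees of freedom 433 against 5.75), so its small p-values are not quoted.

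Deviations of same-numbered libraries correlated at -0.0862, 0.0381 and 0.0185, within the range of -0.157 to 0.147 between differently numbered libraries. With 3 libraries per genotype this cannot settle whether replicate numbers pair the samples. With the replicate block 1467 genes were higher and 1107 lower, the 6 falls passed, and 2 other differentiating genes were higher. Low counts limit Ly6k and Prss50.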
